A study of Homo sapiens with 4 samples.

Results

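The kinesins are the motor proteins that walk along, or take apart, microtubules, and they are described here across the genes of 1 count table. Members were the genes whose symbol is KIF or KIFC followed by a number, with or without a letter from A to C. The rule found 42 kinesin genes among the 60606 genes of the table. It used names alone, and no measured value. Kinesins of other names are not members, and CENPE, such a kinesin, is counted below among the spindle partners.

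RNA was sequenced from DaroR cells, a line made by the study from LNCaP, a prostate cancer cell line, by long growth in the antiandrogen darolutamide. The 2 siControl libraries came from DaroR cells transfected with control siRNA at 20 nM, and the 2 siLOC730101 libraries from DaroR cells transfected with a pool of siRNAs against the long noncoding RNA LOC730101 at 20 nM. All 4 libraries share the resistant line and 10 μM darolutamide in the medium. DaroR is a single line, the siRNAs were 1 pool, and the labels do not say whether replicates were separate cultures, so that the tests measure only the spread between these libraries, which may be technical.

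Kinesins share a motor domain that splits ATP, and most move toward the plus end of the microtubule. One class carries vesicles, organelles and ciliary cargo in cells that are not dividing. Another class works in the spindle and the midbody, where its members slide microtubules apart, move chromosomes, shorten microtubule ends or complete cytokinesis, and many genes of this class are transcribed mainly in G2 and M phase through promoter elements named CHR and CCAAT box. Members were divided by these roles into 12 spindle and cytokinesis kinesins, 15 cargo transport kinesins and 15 other kinesins, which act at the cilium or at microtubule ends or are less well known. KIF2A, which also works at spindle poles, and KIF4B, closely similar to the spindle kinesin KIF4A, were placed among the other kinesins. The shares by role given below depend on this division.

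The libraries held 39213498 to 53368158 counts, of which 76051 to 114972 fell on kinesin genes. The siLOC730101 totals were 80.4% of the siControl mean. The 9 markers of luminal prostate cells that were looked up were all expressed, with KLK3, which encodes prostate specific antigen, at 1487 to 1916 normalized CPM (counts scaled to a common library size). Among 8 markers of other cells, PTPRC, KRT5 and CHGA had 0 counts in every library, PECAM1 had at most 2 counts, and COL1A1 was the highest at 10.98 to 14.7 CPM. LOC730101 is listed as ENSG00000216775 at chr6:52664366-52669155 (GRCh38, plus strand). It had 47.4 and 50.6 CPM in siControl and 15.4 and 17.9 CPM in siLOC730101, a log2 fold change of -1.56 (standard error, SE, 0.12, adjusted p = 4.34e-06 in edgeR's quasi-likelihood test). The level of the targeted RNA therefore followed the labels.

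The levels of the kinesins were compared first, as normalized CPM per kilobase of exon (CPM/kb), so that long and short genes stand on 1 scale. A small number of genes, mostly transport motors, made up most of the kinesin RNA by this measure. The 42 members summed to 283.2 CPM/kb as a mean of the 4 libraries. KIF5B, the ubiquitous heavy chain of conventional kinesin (kinesin-1), held 30.8% of that sum. The 5 highest members, which include the spindle kinesin KIF22, held 61.9%. The transport kinesins together held 73.3%, the spindle and cytokinesis kinesins 22.0% and the other kinesins 4.73%.

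KIF5B lay at 88.5 and 90.8 CPM/kb in siControl and at 88.1 and 81.3 CPM/kb in siLOC730101. Its lowest library was far above the highest library of KIF3B, the next gene in the order. KIF3B, a subunit of heterotrimeric kinesin-2, the motor of anterograde transport in cilia, had a mean of 28.6 CPM/kb. It was followed by KIF1C, a kinesin-3 that carries vesicles toward the cell edge, at 25.0 CPM/kb, by KIFC2, a motor of the minus-end-directed kinesin-14 family, at 20.6 CPM/kb, and by KIF22, the chromosome-bound kinesin-10, at 13.9 CPM/kb. The range over the 4 libraries of each of these first 5 genes did not overlap that of its next neighbour, although KIF3B and KIF1C came close.

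Below KIF22 the order was less certain. KIF1B and KIF1A, kinesin-3 motors for synaptic vesicle precursors and related cargo, had means of 10.9 and 10.6 CPM/kb, KIF3A, the partner of KIF3B, had 10.5 CPM/kb, and KIF2C, which removes tubulin from microtubule ends at centromeres, had 9.87 CPM/kb. The ranges of neighbours among these 4 genes overlapped. KIF11, the kinesin-5 that pushes the spindle poles apart, followed at 6.74 CPM/kb and KIF4A, a kinesin-4 of chromosome arms and the central spindle, at 6.63 CPM/kb, and their ranges overlapped too. Over the whole order, the ranges of 30 of 41 neighbouring pairs overlapped.

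**Figure D1:**
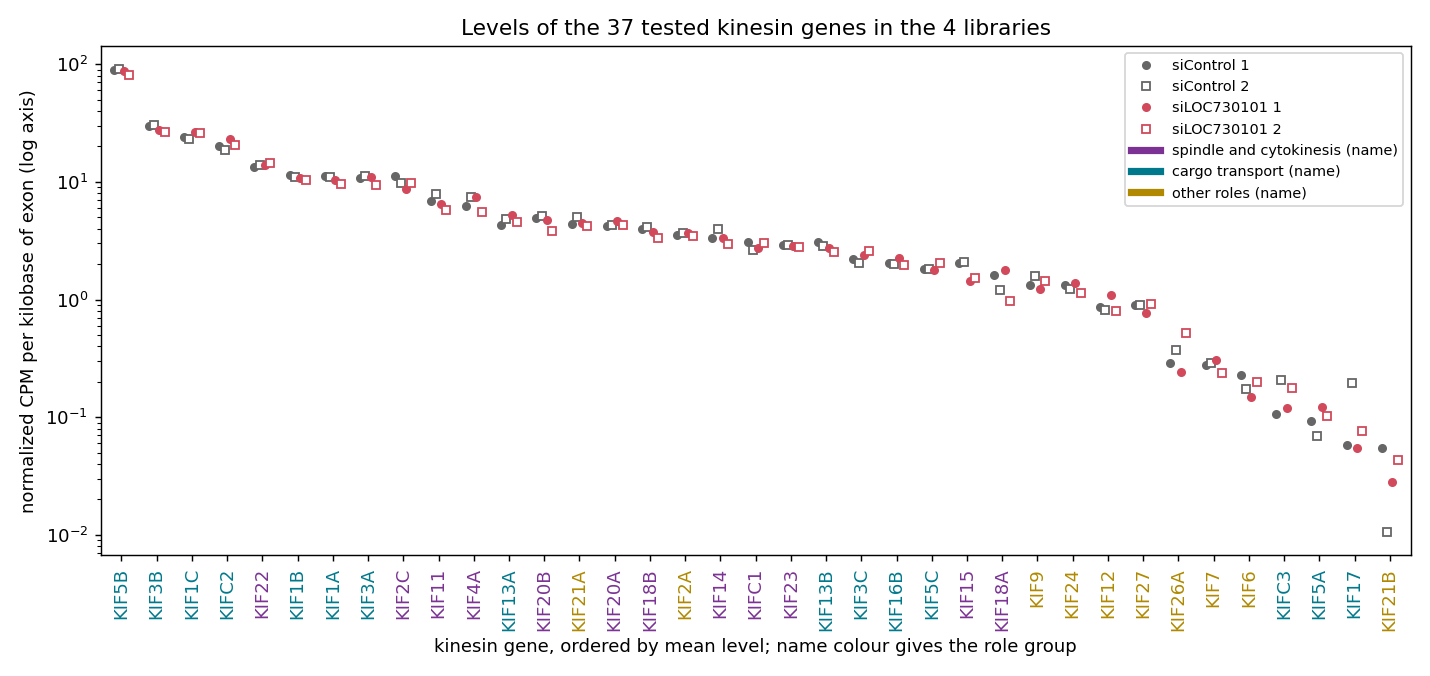
Normalized CPM per kilobase of exon (log axis) of the 37 kinesin genes that were tested, ordered by mean level, with 1 point for each library and the role group given by the colour of the name. KIF5B stands at 81.3 to 90.8 CPM/kb above every other gene, and the points of KIF17 and KIF21B, at the low end, spread widely.

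By family, kinesin-1 held 31.5% of the summed level, kinesin-3 21.0% and kinesin-2 14.7%. Within kinesin-1 the other members were far lower than KIF5B: KIF5C, which is best known from neurons, had a mean of 1.86 CPM/kb and KIF5A, the most neuronal of the family, 0.0966 CPM/kb. The exons of KIF5C in the annotation add up to 33151 bases, which lowers its value per kilobase. Kinesin-6, whose members work at the central spindle and midbody, was led by KIF20B at 4.64 CPM/kb and KIF20A at 4.37 CPM/kb. Kinesin-8, which shortens the plus ends of microtubules, was led by KIF18B at 3.81 CPM/kb and KIF18A at 1.40 CPM/kb. In kinesin-13, KIF2A, which depolymerizes microtubules at spindle poles and in neurons, followed KIF2C at 3.59 CPM/kb. In kinesin-4, KIF21A, which restrains microtubule growth at the cell cortex, followed KIF4A at 4.51 CPM/kb. The remaining leaders were KIF15 at 1.77 CPM/kb and KIF12 at 0.896 CPM/kb for kinesin-12, KIFC1 at 2.87 CPM/kb as the gene after KIFC2 in kinesin-14, KIF9 at 1.39 CPM/kb and KIF6 at 0.187 CPM/kb for kinesin-9, and KIF26A at 0.358 CPM/kb for kinesin-11.

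There were 5 members that did not pass the expression filter. KIF2B, a relative of KIF2C known from testis, had 0 counts in every library, which allows a level of up to 0.079 CPM in the shallowest library (3 counts, counting error only). KIF19, a depolymerase of cilia, had 4 counts in siLOC730101 replicate 1 and 0 in the others. KIF25 had 0 counts in both siControl libraries, 10 in siLOC730101 replicate 1 and 2 in siLOC730101 replicate 2, and KIF26B had 5 and 0 counts in siControl and 4 and 4 in siLOC730101. KIF4B, an intronless gene closely similar to KIF4A, had 2 and 6 counts in siControl and 0 in both siLOC730101 libraries, and whether reads that fit both genes were lost from either was not tested. Values this low carry no comparison.

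The siLOC730101 and siControl libraries were then compared to ask how the kinesins responded when LOC730101 was lowered. No kinesin passed an adjusted p of 0.05 in either direction in edgeR's quasi-likelihood test, with p-values adjusted over the 19349 genes tested, and the lowest adjusted p was 0.282, for KIF15. Over all genes, 55 passed, which is 0.284%. At an unadjusted p under 0.05, KIF11 and KIF15 were the 2 kinesins of 37 (5.41%), against 10.8% of all genes tested, and both were lower, where 4.39% of all genes were lower at that threshold. The count at the unadjusted threshold moved with the setting, to 5 kinesins (13.5%) with upper-quartile factors, where 10.8% of all genes passed, and to 6 (16.2%) without siLOC730101 replicate 1, where 15.4% did. DESeq2 called 0 of the 23 kinesins to which it gave an adjusted p, against 3.08% of all genes with one, and had 1 of 37 kinesins at an unadjusted p under 0.05, against 5.82% of all genes.

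By direction alone, 24 of the 37 kinesins tested (64.9%) had a log2 fold change below 0, against 50.4% of all genes, and the median log2 fold change was -0.07, against -0.00213 over all genes. Both siLOC730101 libraries lay below both siControl libraries in 10 kinesins (27.0%), against 20.5% of all genes, and above them in 5 kinesins (13.5%), against 21.3%. These shares and medians describe the family and were not tested as a list.

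**Figure D2:**
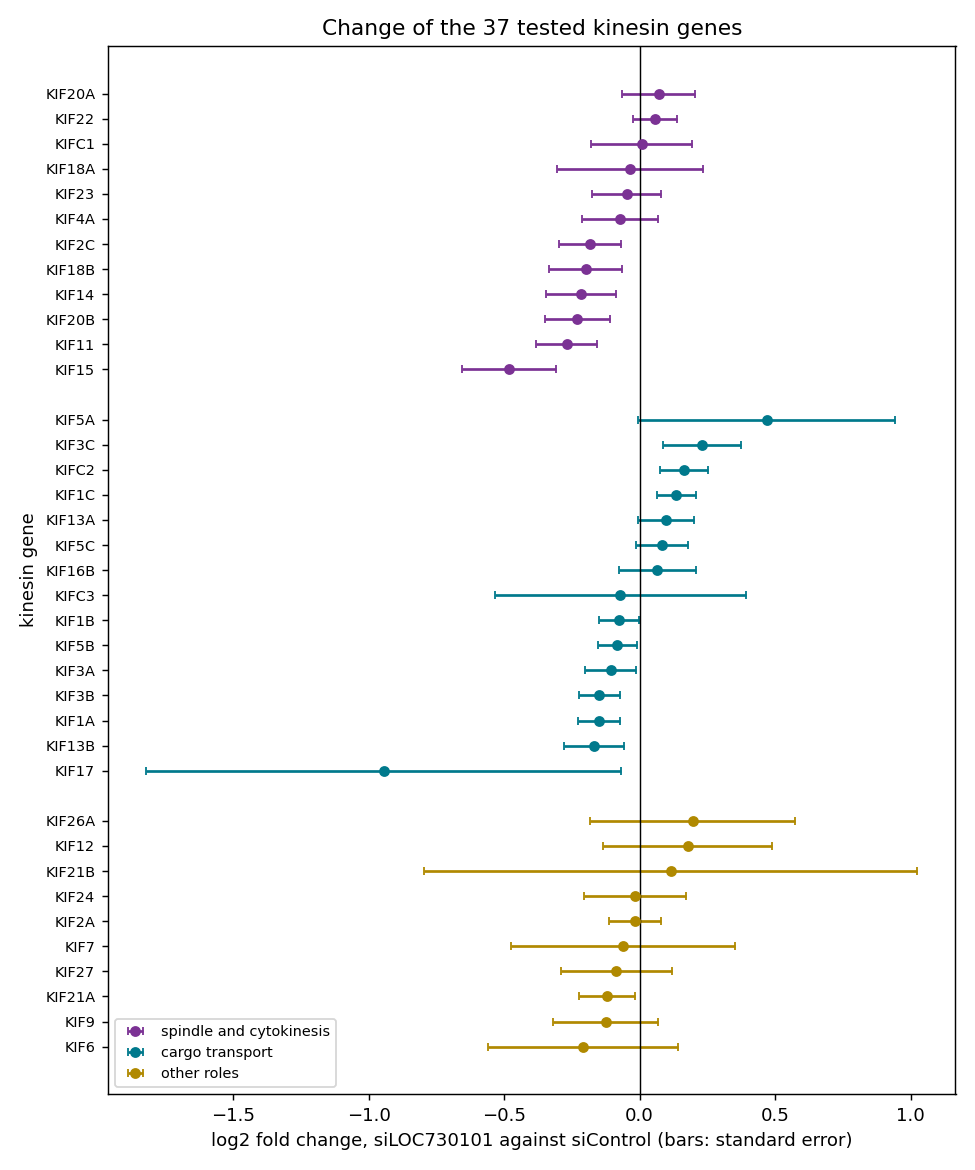
Log2 fold change of siLOC730101 against siControl for the 37 kinesin genes tested, by role group, with bars of 1 standard error from the edgeR fit and a line at 0. Of the 12 spindle and cytokinesis kinesins 9 lie left of the line, with KIF15 at -0.48 and KIF11 at -0.27 the lowest, and the transport kinesins lie on both sides, with KIF17 at -0.94 and a wide bar.

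The spindle and cytokinesis kinesins were mostly lower after siLOC730101, by small amounts. All 12 were tested, 9 had a log2 fold change below 0, and the median was -0.13 with a range from -0.48 to 0.07. In 5 of them (41.7%) both siLOC730101 libraries lay below both siControl libraries, against 20.5% of all genes. In 1 (8.33%), against 21.3% of all genes, both siLOC730101 libraries lay above both siControl libraries. None passed the adjusted threshold. Their summed level was 63.8 and 65.3 CPM/kb in siControl and 61.7 and 58.3 CPM/kb in siLOC730101, so that both siLOC730101 sums were below both siControl sums. The median moved to -0.28 without siLOC730101 replicate 1 and to -0.085 without siLOC730101 replicate 2. In bulk RNA, fewer cells that express a gene and less of its RNA per cell cannot be told apart.

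KIF15, a kinesin-12 that can take over the work of KIF11 in keeping a spindle bipolar, had 10.7 and 11.1 CPM in siControl and 7.59 and 7.98 CPM in siLOC730101. The groups were well apart, with each pair of replicates close together. Its log2 fold change was -0.48 (SE 0.17, edgeR adjusted p = 0.282) (a difference of -28.5%), on counts of 578 and 519 against 312 and 303. The adjusted p ranged from 0.166 to 0.606 over the alternative settings, and the log2 fold change from -0.52 to -0.44.

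KIF11 had 36.4 and 42.1 CPM in siControl and 34.6 and 30.4 CPM in siLOC730101. The groups did not overlap, but siControl replicate 1 was nearer to siLOC730101 replicate 1 than to the other siControl library. The log2 fold change was -0.27 (SE 0.11, 95% interval -0.51 to -0.03, edgeR adjusted p = 0.397). Leaving out siControl replicate 2 gave -0.16, and leaving out siControl replicate 1 gave -0.37.

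The kinesin-6 motors of cytokinesis had values on both sides of 0. KIF20B, which is needed late in abscission, had 33.8 and 35.1 CPM in siControl and 32.3 and 26.3 CPM in siLOC730101, a log2 fold change of -0.23 (SE 0.12, edgeR adjusted p = 0.522) that was -0.09 without siLOC730101 replicate 2. KIF20A, which brings the chromosomal passenger complex to the central spindle, had 16.4 and 16.5 CPM in siControl and 17.9 and 16.6 CPM in siLOC730101, and it was the 1 spindle kinesin with both siLOC730101 libraries above both siControl libraries. Its log2 fold change was 0.07, with a standard error of 0.14. The difference between KIF20A and KIF20B was not tested.

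KIF23, the motor subunit of centralspindlin, was among the steadiest members, at 19.3 and 19.1 CPM in siControl and 18.8 and 18.4 CPM in siLOC730101. KIF18A, which damps the movement of chromosomes at the metaphase plate, was among the least steady of the spindle kinesins, at 7.33 and 5.45 CPM in siControl and 8.03 and 4.43 CPM in siLOC730101. The siLOC730101 libraries of KIF18A enclosed the siControl libraries, and its log2 fold change of -0.04 turned to 0.33 without siLOC730101 replicate 2 and to -0.52 without siLOC730101 replicate 1. KIF18B, which shortens astral microtubules, had 18.8 and 19.7 CPM in siControl and 17.7 and 15.8 CPM in siLOC730101, with the groups apart.

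KIF2C had 40.99 and 35.5 CPM in siControl and 31.6 and 35.8 CPM in siLOC730101, a log2 fold change of -0.18 with overlapping groups. KIF4A had 28.3 and 33.9 CPM in siControl and 33.9 and 25.2 CPM in siLOC730101, and its log2 fold change of -0.07 became positive without siControl replicate 2 or siLOC730101 replicate 2. KIF14, a kinesin-3 that works at the midbody, had 24.1 and 29.2 CPM in siControl and 24.4 and 21.5 CPM in siLOC730101. Each of these 3 genes had 1 siLOC730101 library inside the siControl range. KIF22 and KIFC1, a minus-end motor that bundles spindle poles, had log2 fold changes of 0.06 and 0.01 with overlapping groups, and that of KIFC1 fell below 0 with upper-quartile factors or with scaling by library size alone.

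**Figure D3:**
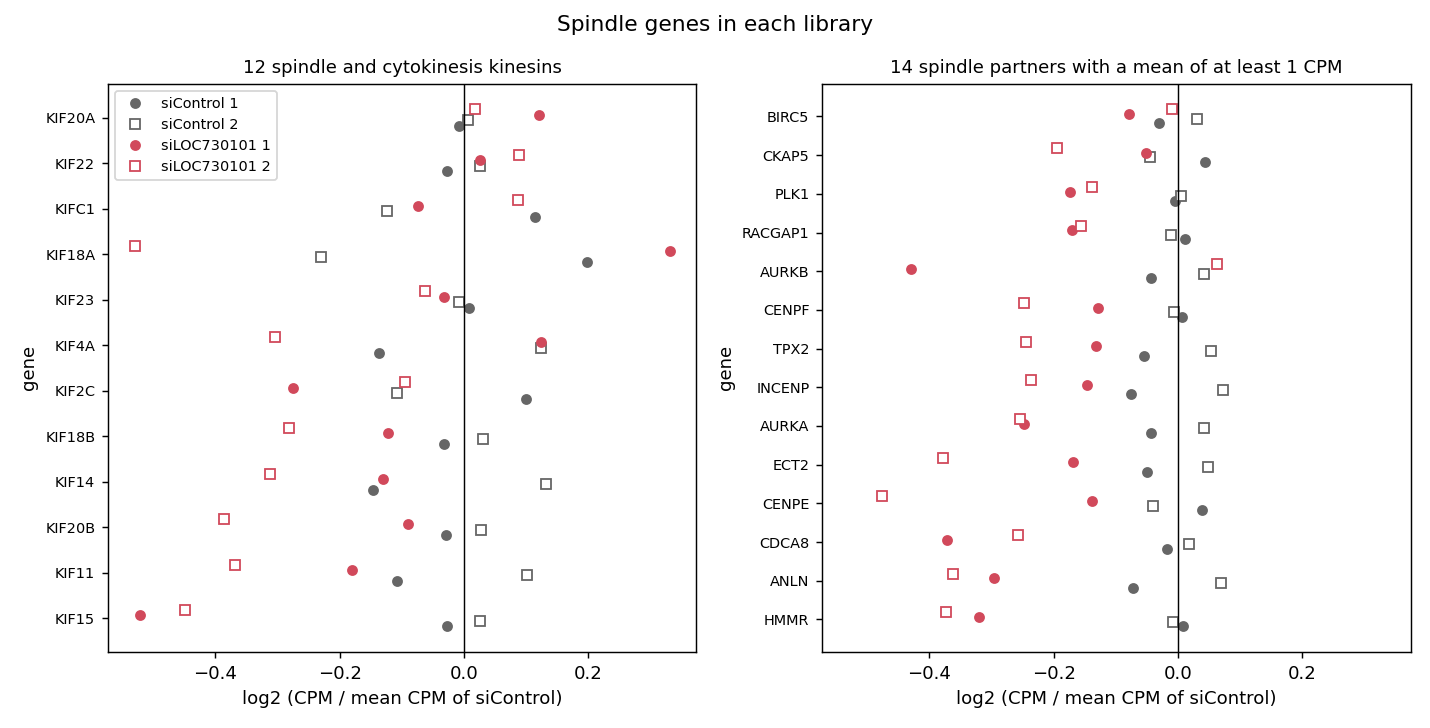
Level in each library relative to the mean of the siControl libraries, as log2 of the CPM ratio, for the 12 spindle and cytokinesis kinesins (left) and for 14 spindle partners with a mean of at least 1 CPM (right), each list in the order of its fold change. KIF15 and KIF11 have both siLOC730101 points left of both siControl points, and KIF18A has its points spread on both sides of 0. More of the partners than of the kinesins have the groups apart, and the cause of this was not tested.

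The genes of proteins that work beside these motors gave a pattern with smaller errors, at higher levels. Their median standard error was 0.096, against 0.132 for the spindle kinesins, and their median level 9.49 against 4.09 CPM/kb. The list held 16 spindle partners, such as Aurora kinases and the chromosomal passenger complex, and it was chosen with earlier results on cell cycle genes in these libraries known. The 16 include CENPE, itself a kinesin that the naming rule leaves out. All 16 were tested, 15 had a log2 fold change below 0, the median was -0.19, and in 13 (81.2%) both siLOC730101 libraries lay below both siControl libraries, against 20.5% of all genes. At an unadjusted p under 0.05 there were 6 (37.5%), all lower, where 4.39% of all genes were lower, and 0 passed the adjusted threshold in edgeR. HMMR, a spindle assembly factor at the poles, had 57.6 and 57.0 CPM in siControl and 46.0 and 44.3 CPM in siLOC730101, a log2 fold change of -0.35 (SE 0.092, edgeR adjusted p = 0.138). BIRC5, a subunit of the chromosomal passenger complex, had overlapping groups and a log2 fold change of -0.04. PRC1, which bundles the microtubules on which KIF4A works, had the lowest log2 fold change, -0.68, and NUSAP1 the highest, 0.26, but both were listed at under 1 CPM on average, and 61.9% and 81.4% of their exon bases lie in exons of other genes too. The difference between the partners and the spindle kinesins was not tested, and neither was any part that level or error has in it.

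The transport kinesins showed no common direction. All 15 were tested, 8 had a log2 fold change below 0 and 7 above, and the median was -0.07, which turned to 0.091 without siControl replicate 2. Both siLOC730101 libraries lay below both siControl libraries in 5 (33.3%) and above them in 4 (26.7%), against 20.5% and 21.3% of all genes. The summed level was 209.7 and 210.5 CPM/kb in siControl and 212.1 and 197.7 CPM/kb in siLOC730101, so that the groups overlapped.

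KIF5B had 519 and 533 CPM in siControl and 517 and 477 CPM in siLOC730101. The groups did not overlap, but siLOC730101 replicate 1 lay just under the siControl libraries. The log2 fold change was -0.08 (SE 0.072, 95% interval -0.24 to 0.07, edgeR adjusted p = 0.75). KIF3B had 181.9 and 185.9 CPM in siControl and 168.8 and 163.0 CPM in siLOC730101, a log2 fold change of -0.15 (SE 0.074, edgeR adjusted p = 0.501), and its partner KIF3A had a log2 fold change of -0.11 with siLOC730101 replicate 1 inside the siControl range. KIF1C went the other way, with 24.2 and 23.3 CPM/kb in siControl and 26.4 and 25.8 CPM/kb in siLOC730101, and a log2 fold change of 0.14 (SE 0.073, edgeR adjusted p = 0.543). The groups of KIF3B and of KIF1C did not overlap, but neither difference passed the test.

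KIF1A had 200.1 and 198.5 CPM in siControl and 187.2 and 171.9 CPM in siLOC730101, a log2 fold change of -0.15, and KIF1B had a log2 fold change of -0.08, both with the groups apart. KIFC2 had 89.7 and 83.0 CPM in siControl and 102.2 and 91.3 CPM in siLOC730101, a log2 fold change of 0.16 (SE 0.088, edgeR adjusted p = 0.54). Of its exon bases, 17.8% are shared with FOXH1 on the other strand. KIF3C, which can replace KIF3B as the partner of KIF3A, had 14.1 and 13.2 CPM in siControl and 15.4 and 16.5 CPM in siLOC730101, and its log2 fold change of 0.23 was the second highest of the family. The 3 KIF3 genes of kinesin-2 thus had log2 fold changes of -0.15 for KIF3B, -0.11 for KIF3A and 0.23 for KIF3C. Their standard errors were 0.074, 0.094 and 0.14. The value of KIF3A ran from -0.22 without siLOC730101 replicate 1 to -0.0012 without siLOC730101 replicate 2.

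The extremes of the family were genes with few counts. KIF17, a kinesin-2 of cilia and dendrites, had the lowest log2 fold change, -0.94, but its standard error was 0.88, its counts were 14 and 41 in siControl and 10 and 13 in siLOC730101, and the value was 0.18 without siControl replicate 2. KIF5A had the highest, 0.47, with a standard error of 0.47 and counts of 61 and 40 against 61 and 48. KIF26A, a kinesin without known motor activity, had 0.20 with a standard error of 0.38 and overlapping groups. There were 7 members at under 1 CPM on average.

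The other kinesins had 10 tested genes, of which 7 (70%) had a log2 fold change below 0, against 50.4% of all genes. The median was -0.04, and it moved to -0.15 without siLOC730101 replicate 2. In none of the 10 were the groups apart, while over all genes 20.5% were apart and lower and 21.3% apart and higher. KIF21A had 44.3 and 50.7 CPM in siControl and 45.0 and 42.4 CPM in siLOC730101. KIF2A had 46.5 and 47.8 CPM in siControl and 47.9 and 45.1 CPM in siLOC730101, with 21.3% of its exon bases shared with DIMT1 and 1 unnamed gene. KIF6 and KIF9, which are known from motile cilia, had log2 fold changes of -0.21 and -0.13, each within its standard error of 0 (0.35 and 0.19).

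The light chains, adaptors and cargo linkers that tie transport kinesins to their cargo were all expressed. Of 20 genes, 11 had a log2 fold change above 0 and 9 below, 0 passed the adjusted threshold in edgeR, 1 (5.00%) had an unadjusted p under 0.05, against 10.8% of all genes, and the median was 0.051. KLC3, a kinesin light chain, was the highest at 0.55 (SE 0.21), with 5.75 and 7.78 CPM in siControl and 8.76 and 11.01 CPM in siLOC730101. HAP1, an adaptor of vesicle motors, followed at 0.31 (SE 0.29). FEZ1, an adaptor of KIF5, was the lowest at -0.23 (SE 0.33) with overlapping groups. SPAG9, a scaffold for kinesin-1 and dynein, was next at -0.16 (SE 0.079). HAP1 and FEZ1 had means of only 3.24 and 3.12 CPM.

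Cytoplasmic dynein, which with its cofactor dynactin carries cargo the opposite way, was compared with the kinesins as the other microtubule motor of these cells. Of 25 genes, 16 had a log2 fold change above 0 and 9 below, 0 passed the adjusted threshold in edgeR, 4 were higher and 1 was lower at an unadjusted p under 0.05 (20% in all, against 10.8% of all genes), and the median was 0.059. BICD2, a cargo adaptor of dynein, had the highest log2 fold change at 0.31 and the dynactin subunit DCTN3 the next at 0.28. The lowest were DYNLRB1, a light chain listed at under 1 CPM, at -0.60 (SE 0.58), and NDE1 at -0.49 (SE 0.16). NDE1, a dynein regulator that also acts in mitosis, had 13.9 and 15.5 CPM in siControl and 9.86 and 11.1 CPM in siLOC730101. Of the exon bases of DYNLRB1 and NDE1, 26.1% and 20.4% lie in exons of other genes too.

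The promoters of the kinesins were then read, because genes of G2 and M phase often carry a CHR element and CCAAT boxes near the start. RefSeq promoter sequences (GRCh38.p14, 250 bases before and 50 bases from the annotated start, on the strand of the gene) were matched by symbol for 34 of the 42 members. The letters searched on both strands were TTTGAA for the CHR, CCAAT for the CCAAT box, and GGCGGGAA, TTTCGCGC and TTTGGCGC for E2F elements, and none of these contains another. A match is a run of letters and not a binding site.

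The 130 bases around the start of 6 spindle kinesins and of 1 transport kinesin are shown because they place the elements beside each other. Each runs from 100 bases before the start to 30 bases from it, with matches on either strand in capitals (TTTGAA or TTCAAA for the CHR, CCAAT or ATTGG for the CCAAT box, GCGCCAAA for the E2F element).
KIF11, chr10:92593030-92593159, plus strand: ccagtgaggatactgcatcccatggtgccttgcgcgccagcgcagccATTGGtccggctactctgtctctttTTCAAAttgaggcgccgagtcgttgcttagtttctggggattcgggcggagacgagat
KIF15, chr3:44761694-44761823, plus strand: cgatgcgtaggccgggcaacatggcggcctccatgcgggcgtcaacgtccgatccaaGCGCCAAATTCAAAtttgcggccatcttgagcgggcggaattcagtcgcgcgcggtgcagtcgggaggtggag
KIF4A, chrX:70290004-70290133, plus strand: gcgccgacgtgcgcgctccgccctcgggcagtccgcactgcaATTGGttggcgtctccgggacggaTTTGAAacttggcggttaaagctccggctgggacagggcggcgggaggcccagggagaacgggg
KIF18A, chr11:28108127-28108256, minus strand: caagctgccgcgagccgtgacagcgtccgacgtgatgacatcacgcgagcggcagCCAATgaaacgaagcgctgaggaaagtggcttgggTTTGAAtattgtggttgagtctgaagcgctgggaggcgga
KIF23, chr15:69414249-69414378, plus strand: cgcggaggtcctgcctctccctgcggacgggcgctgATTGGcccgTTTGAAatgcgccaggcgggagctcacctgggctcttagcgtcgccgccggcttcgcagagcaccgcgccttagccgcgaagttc
KIF20A, chr5:138179012-138179141, plus strand: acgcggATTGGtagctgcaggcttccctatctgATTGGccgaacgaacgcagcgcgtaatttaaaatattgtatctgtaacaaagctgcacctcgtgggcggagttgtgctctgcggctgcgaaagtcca
KIF1C, chr17:4997850-4997979, plus strand: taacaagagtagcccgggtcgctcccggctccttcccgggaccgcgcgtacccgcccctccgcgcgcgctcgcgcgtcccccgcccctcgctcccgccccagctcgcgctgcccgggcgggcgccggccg
In the promoters of KIF11, KIF4A, KIF18A and KIF23 a CCAAT box precedes a CHR. KIF15 has an E2F element directly before its CHR and no CCAAT box in the 300 bases. KIF20A has a pair of CCAAT boxes and no CHR match as spelled here, and KIF1C has no match to any of the letters searched. Other spellings of the CHR were not searched.

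Counted by gene, 9 of 12 spindle and cytokinesis kinesins (75.0%) had a CHR match in a promoter, while 1 of 11 transport kinesins, KIF5B, and 1 of 11 other kinesins, KIF4B, had one (9.09% each). By promoter window, the shares were 9 of 13 (69.2%), 1 of 16 (6.25%) and 1 of 14 (7.14%). Of all 35116 promoter windows in the RefSeq table, 15.2% had one. A CCAAT box was found in 10 of 12 spindle kinesins (83.3%), in 4 of 11 transport kinesins (36.4%) and in 4 of 11 other kinesins (36.4%). By window it stood in 10 of 13 (76.9%), 5 of 16 (31.2%) and 5 of 14 (35.7%), against 34.6% of all windows. An E2F element as spelled here was found in 1 kinesin, KIF15, and in 4.24% of all promoters. Both a CHR and a CCAAT box stood in 8 of the 13 promoter windows of spindle kinesins (61.5%) and in 5.90% of all windows.

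**Figure D4:**
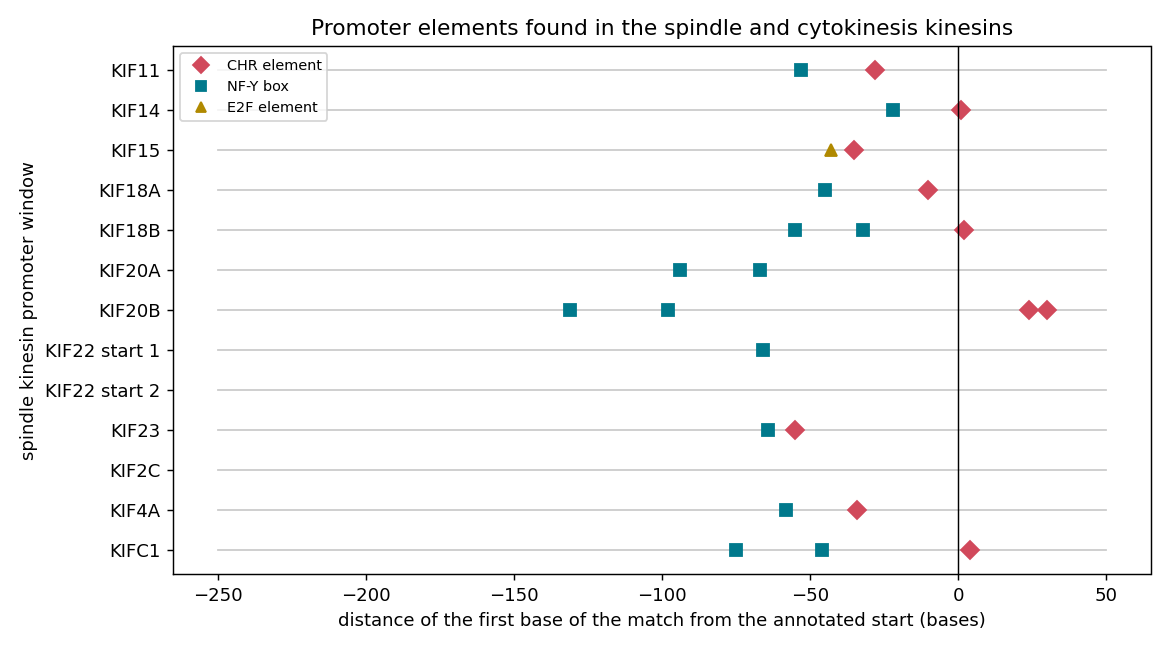
Position of each match in the 13 promoter windows of the spindle and cytokinesis kinesins, as the distance in bases of its first base from the annotated start at 0 (negative before the start). The CCAAT boxes (labelled NF-Y box) lie before the CHR matches in every window that holds both, and KIF2C and the second start of KIF22 have none.

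The distance between the first bases of the nearest CHR and CCAAT box was 9 bases in KIF23, 23 in KIF14, 24 in KIF4A, 25 in KIF11, 34 in KIF18B, 35 in KIF18A, 50 in KIFC1 and 122 in KIF20B. The 9 spindle kinesins with a CHR match had log2 fold changes from -0.48 for KIF15 to 0.01 for KIFC1, and they include KIF11 at -0.27 and KIF23 at -0.05. The 3 without TTTGAA, the only spelling of the CHR searched, were KIF20A at 0.07, KIF22 at 0.06 and KIF2C at -0.18. Whether these 3 hold a CHR of another spelling was not examined. The genes with and without a CHR match were not tested against each other. KIF5B, the transport kinesin with a CHR match and a CCAAT box, had -0.08.

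Sites for the microRNA miR-1-3p were searched last, because the study examined LOC730101 together with this microRNA. The level of the microRNA itself was not analysed here. Its mature sequence in RefSeq, with the seed (bases 2 to 8) in capitals, is given with the stretch of each kinesin 3′ UTR that ends in the matching letters ACATTCC, in capitals (GRCh37, the coordinates of these 7 bases).
hsa-miR-1-3p: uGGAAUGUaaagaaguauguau
KIF3B, chr20:30919794-30919800, plus strand: ggagcaatagaaataACATTCC
KIF3C, chr2:26149607-26149613, minus strand: aaatatatatataaaACATTCC
KIF17, chr1:20990934-20990940, minus strand: cagccctgggaagacACATTCC
KIF2A, chr5:61681924-61681930, plus strand: cagccaagaaaaattACATTCC
These 4 were the kinesins with such a site among 36 that were tested and had an annotated 3′ UTR (11.1%), against 1791 of 13496 genes (13.3%). Only the 3′ UTR of the Ensembl canonical transcript of each gene was searched, and other 3′ ends were not. The spindle kinesins with both a CHR and a CCAAT box are not among these 4. Of them, KIF4A held CATTCCA, the other seed match searched.

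The 4 genes with a site had log2 fold changes of -0.15 for KIF3B, 0.23 for KIF3C, -0.94 for KIF17 and -0.02 for KIF2A, with a median of -0.083, and 3 of the 4 were below 0. Among the 32 kinesins without the site, 21 were below 0, with a median of -0.071. The 3′ UTRs with a site were longer, with a median of 3036 bases against 1126.5 bases. The kinesins with and without a site were not tested against each other, and 3 further kinesins, KIF1C, KIF4A and KIF5A, held CATTCCA alone.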

How the data were processed

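RNA from 4 libraries, 2 siControl and 2 siLOC730101, was analysed. The authors deposited 1 table of read counts per gene without normalization. Its header names featureCounts 2.0.1, hg38 and gencode 41, with no paired-end or strand option. The submitters' processing notes name BWA, while the study's methods name STAR with hg19 and an earlier gencode release, and counts were used as deposited. Even values made up 66.0% to 70.1% of counts from 1 to 20, so mates may have been counted apart. Reads in exons shared by genes are not assigned to either by the default of featureCounts, and 20 kinesins share some exon bases, 6 of them over 10%. The floor of 3 counts covers counting error only.

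Counts were filtered with filterByExpr (19349 genes), scaled by TMM and fitted in R 4.3.3 with edgeR 4.0.16 (quasi-likelihood, condition as the only term, Benjamini-Hochberg over all genes tested). The biological coefficient of variation was 0.147. A positive log2 fold change means higher in siLOC730101. For 2 against 2 libraries the smallest two-sided p of an exact permutation test is 0.333. Replicates differed by more than sampling noise, with a chi-square per degree of freedom of 11.32 in siControl and 14.32 in siLOC730101. The script was tested on simulated counts. Levels per kilobase used the exon length in the table. Motifs were searched with Python 3.11.15.

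Genes named were those with an unadjusted p under 0.05, the 3 highest and 3 lowest log2 fold changes, the 10 highest levels per kilobase, the 2 highest levels of each family, the genes that were not tested, and the 2 lowest and 2 highest log2 fold changes of each partner list. The other kinesins of a role group were named after their values were seen. Members, roles and lists were chosen with earlier results of these data known. Alternatives were other scalings (DESeq2 size factors, upper-quartile, library size), other filters, other quasi-likelihood settings, DESeq2 1.42.0, a replicate block, halved counts and leaving out each library. Some marker genes are not reported here.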

Additional observations from a re-analysis of the deposited data

How the results depend on the processing

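No kinesin passed the adjusted threshold under any of the 14 alternatives to the edgeR fit, DESeq2 and the replicate block included. With all 4 libraries, the fewest kinesins at an unadjusted p under 0.05 were 1 (2.7%) in DESeq2, against 5.82% of all genes. The most were 5 (13.5%), with upper-quartile factors, library size or the replicate block, against 10.8%, 10.8% and 13.2% of all genes. DESeq2 gave an adjusted p to 23 of the 37 kinesins. LOC730101 passed under all of the alternatives, with log2 fold changes from -1.67 to -1.44. The labels number the replicates of both groups but tie the numbers to no shared batch, and the deviations of same-numbered libraries had a correlation of 0.015. With the replicate block 5 kinesins (13.5%) had an unadjusted p under 0.05, against 13.2% of all genes, and 485 genes were called higher and 167 lower over all genes.

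The counts of all genes called, 41 higher and 14 lower, moved to 324 and 113 with no filter beyond 1 count, 123 and 50 with a base mean above 50, 87 and 24 with the legacy method off, 233 and 64 in DESeq2, and 113 and 35 with halved counts. With library size alone 35 were lower. Leaving out each library gave 77 to 923 higher and 26 to 272 lower, the most without siLOC730101 replicate 1. Each of these fits leaves 1 library in a group, assumed to vary like the others. The cause of these moves was not tested.

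Upper-quartile factors and library size moved the median of all genes to -0.033 and -0.0392. The share of all genes with a log2 fold change below 0 moved from 50.4% to 55.9% and 57.1%. The kinesins with siLOC730101 above siControl went from 5 to 3 under each, and the matching share of all genes is not given here. The transport median was -0.00591 with halved counts. Leaving out each library gave medians of -0.282 to -0.0849 for spindle, -0.0489 to 0.0908 for transport and -0.152 to -0.015 for other kinesins, and -0.00526 to 0.0111 over all genes. KIFC1 was reversed to -0.0245 with upper-quartile factors, -0.0314 with library size, -0.00882 with a base mean above 50 and -0.000281 with the legacy method off.

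When each library was left out, the log2 fold change crossed 0 in 17 kinesins. It ran from -0.293 to 0.123 in KIF4A, -0.00477 to 0.199 in KIF13A, -0.0528 to 0.0211 in KIF2A, -0.103 to 0.133 in KIFC1, -0.0189 to 0.15 in KIF16B, -0.0304 to 0.195 in KIF5C, -0.522 to 0.326 in KIF18A, -0.25 to 0.00638 in KIF9, -0.144 to 0.103 in KIF24, -0.0517 to 0.376 in KIF12, -0.224 to 0.0471 in KIF27, -0.465 to 0.66 in KIF26A, -0.245 to 0.102 in KIF7, -0.443 to 0.00715 in KIF6, -0.477 to 0.489 in KIFC3, -1.57 to 0.177 in KIF17 and -0.615 to 1.73 in KIF21B. By CPM without length 8 of the 10 highest kinesins were again among the 10 highest, and by exons not shared with another gene, a choice made after the data were seen, 9 were. Depth limits the members under 1 CPM, whose standard errors are the widest.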
